A study of Mus musculus with 4 samples.

Results

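The nonsense-mediated mRNA decay (NMD) factors described here are 9 genes: Upf1, Upf2, Upf3a, Upf3b, Smg1, Smg5, Smg6, Smg8 and Smg9. A position was assigned to a factor when the comma-separated transcript labels of the authors' site table included that gene. The genes were chosen by name, with the listed sites and levels of this same table already known, so their counts and levels are a description and carry no test. The rule gave 902 of the 506952 listed positions, and 8 of the 9 genes had at least 1. The cells were NRAS/AE9a leukemic cells, a mouse acute myeloid leukemia (AML) line, and the labels name 2 wild-type (WT) and 2 Tet2 knockout (KO) libraries of bisulfite-converted poly(A) RNA. The medium of all 4 contained the cytokines SCF (50 ng/ml), IL-3 (10 ng/ml) and IL-6 (10 ng/ml) and the selection drugs puromycin (2 µg/ml) and G418 (1 mg/ml). Tet2 encodes a dioxygenase that oxidises 5-methylcytosine. The table lists, by its name, sites found only in the KO. It holds 0 columns of WT values and 0 columns of a single library, so no KO level was set against a WT level. The labels say neither how Tet2 was deleted nor whether the replicates were separate cultures or clones.

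NMD removes mRNAs on which translation ends too early. UPF1, an RNA helicase, is recruited to such mRNAs and is linked through UPF2 and the paralogs UPF3A and UPF3B to the exon junction complex left behind by splicing. The kinase SMG1, held in a complex with SMG8 and SMG9, phosphorylates UPF1, and phosphorylated UPF1 is bound by SMG5 and the endonuclease SMG6, which start the decay of the mRNA. In bisulfite sequencing unmodified cytosine is read as T and 5-methylcytosine as C. The methylation level of a site is the fraction of the reads used there that still read C. A site had to reach a level of 0.2 and 10 covering reads to be listed. At listed sites called in 1 replicate, the level never rested on fewer than 10 reads used.

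The strand of the gene divided the factors. The plus-strand genes Upf2, Upf3a, Smg5, Smg6 and Smg9 held 895 of the 902 sites, and the minus-strand genes Upf1, Upf3b, Smg1 and Smg8 held 7. Across the genome 34.2% of protein-coding genes had a site. Of those whose strand could be read from the RefSeq start-site table, 51.4% of plus-strand genes and 18.5% of minus-strand genes had one. Plus-strand genes that were listed carried 68 sites in the median and minus-strand genes 1. All 5 plus-strand factors lay above the first of these medians, with between 111 and 263 sites. The minus-strand factors had 0, 1, 2 and 4. The few sites of Upf1, Upf3b, Smg1 and Smg8 are therefore not particular to these genes.

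**Figure D1:**
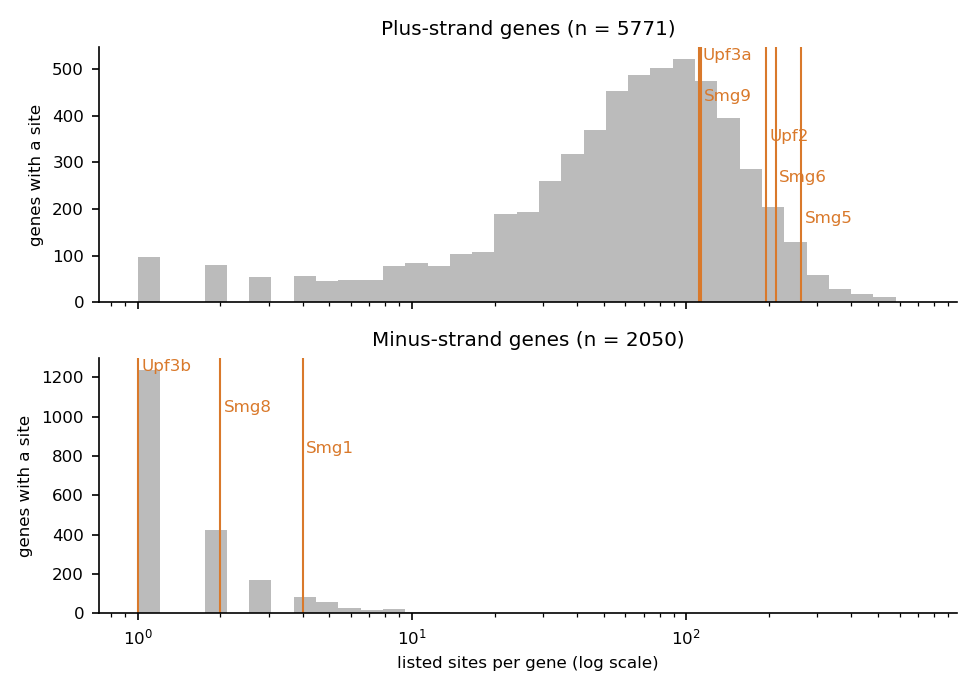
Number of listed sites per gene (horizontal, log scale) against the number of genes (vertical) for genes with at least 1 site on the plus strand (top, 5771 genes) and on the minus strand (bottom, 2050 genes), with the NMD factors as orange lines. The 5 plus-strand factors lie in the right part of their distribution and the 3 minus-strand factors with a site lie between 1 and 4.

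Calls in both KO replicates were as rare in the factors as in the table as a whole. Of the 902 sites, 124 (13.7%, exact 95% interval 11.6 to 16.2) had them, against 14.2% of all listed sites, which lies inside the interval. The median of their levels was 0.526 (quartiles 0.364 and 0.7), and the median over all listed sites was also 0.526. They were covered by 10 to 80 reads, with a median of 17, and the levels at sites called in 1 replicate rested on a median of 13 reads used. Intervals here and below cover counting error only, and reads were not tied to single molecules by an identifier. Intervals of shares treat sites as independent, although 75.5% of the factors' sites had another listed site within 10 nt.

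Upf1, the helicase at the center of the pathway, had 0 listed sites. Its RefSeq span runs from 70331493 to 70353423 on the minus strand of chromosome 8 (mm10). A table with a minimum level and coverage sets no upper limit for a gene that is missing from it, so this count says nothing on whether Upf1 mRNA was methylated or covered. Upf3b, on the minus strand of the X chromosome, had 1 site, at position 37092422, 744 nt from the 3' end of the gene span. It kept 5 unconverted reads of 17 used, a level of 0.294 (Wilson 95% interval 0.133 to 0.531). Although 66 reads covered the position, more than any site of Upf2 or Upf3a, most of them did not enter the level.

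Upf2, whose product joins UPF1 to the UPF3 proteins, had 196 sites on the plus strand of chromosome 2, between 5957484 and 6056252. Their median level was 0.429 (quartiles 0.329 and 0.587), the lowest among the 5 plus-strand factors and lower than in all but 5.60% of plus-strand genes with 5 or more sites. Only 21 sites (10.7%, exact interval 6.76 to 15.9) were called in both replicates. The median coverage was 15 reads, and 0 sites reached 50. The sites stood in 17 groups that were more than 500 nt apart. The first group, of 69 sites within 353 nt, lay at the 5' side of the gene, and the last, of 39 sites within 806 nt, reached the 3' end. Each group between them held 2 to 17 sites. The most deeply read site, at 6056027, was covered by 41 reads on average and had levels of 0.677 and 0.767 in the 2 replicates (mean 0.722, SD 0.0636, n = 2). The highest level among sites with 20 or more covering reads was 0.824, from 14 of 17 reads at 5961701 (Wilson interval 0.590 to 0.938).

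Upf3a, which encodes the less active of the UPF3 paralogs in NMD, had 111 sites on the plus strand of chromosome 8 between 13785752 and 13798492. Their median level was 0.545 (quartiles 0.406 and 0.691), and 15 sites (13.5%, exact interval 7.77 to 21.3) were called in both replicates. The sites fell into 5 groups. The first, of 13 sites close to the 5' end, had the highest median level, 0.769. In the other four the medians were 0.569, 0.5, 0.454 and 0.601, and the middle group alone held 52 of the 111 sites. At 13785800 the level was 0.947, from 18 of 19 reads (Wilson interval 0.754 to 0.991). Not far from it, at 13785830, the replicates gave 0.825 and 0.925 (mean 0.875, SD 0.0707, n = 2) at a mean coverage of 47 reads. The deepest site, at 13796509, was covered by 65 reads and kept 27 of 56 (0.482, interval 0.357 to 0.610). The paralogs thus stood at 111 and 1 sites, on opposite strands of the genome.

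**Figure D2:**
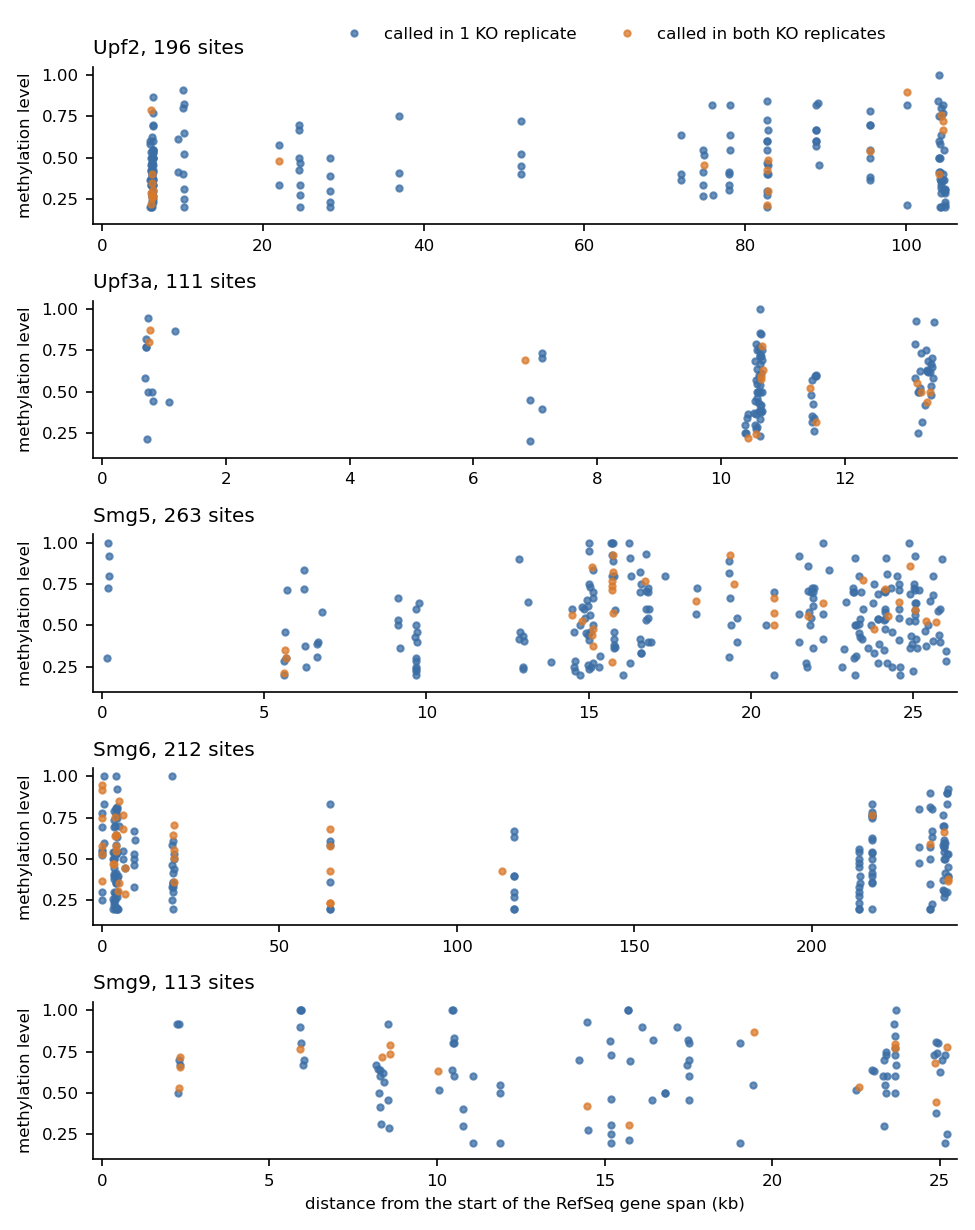
Methylation level (vertical) of each listed site against its distance from the start of the RefSeq gene span in kb (horizontal) for the 5 plus-strand factors, in blue where 1 KO replicate made the call and in orange where both did. Sites stand in narrow columns separated by empty stretches, which in Smg6 leave most of the 239 kb span without a site.

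Counted in windows of 100 nt, the densest stretch of sites in Upf3a was also the densest of all 5771 plus-strand genes with a site. This rank depends on the window length: in 200 nt Upf2 held up to 52 sites and Upf3a up to 46. In 100 nt, from 13795601 to 13795700, 39 positions were listed, 35.1% of all sites of the gene. Tgfb1 followed with 38, and Ins1 and Upf2 each had 37, whereas the median plus-strand gene had 11 in its densest 100 nt. Among minus-strand genes the highest count was 44. Within this Upf3a window levels ran from 0.231 to 1 with a median of 0.545, at 11 to 22 covering reads. Of the 39 positions, 22 directly preceded another listed one, and the longest run, from 13795676 to 13795682, took in 7 bases in a row. Along this run 6 of 12, 7 of 13, 10 of 14, 3 of 13, 12 of 14, 4 of 12 and 8 of 19 reads used read C. Neighbours in the run therefore ranged from 0.231 to 0.857, and all 7 were called in 1 replicate. In the whole window 3 sites were called in both replicates. Their levels were 0.213 and 0.273 at the first, 0.462 and 0.692 at the second, and 0.472 and 0.714 at the third. The next densest window of Upf3a, starting 362 nt from the 3' end of the span, held 13 sites at higher coverage (14 to 44 reads), with a median level of 0.625.

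The densest window of Upf2 lay in its first group of sites, from 5957711 to 5957810, and held 37 positions. Levels ran from 0.231 to 0.867 with a median of 0.417, at 10 to 30 covering reads. Adjacent listed positions were again common, with 15 such pairs and a longest run of 5 bases from 5957754 to 5957758. The levels along this run were 0.455, 0.462, 0.5, 0.4 and 0.389. The fourth of them was called in both replicates, at 0.3 and 0.5, and was one of 4 such sites in the window. The others had 0.208 and 0.312, 0.228 and 0.308, and 0.273 and 0.333. The next densest window, from 6034125 to 6034224, held 17 sites at a median of 0.455, 4 of them in both replicates. Sites this close can be read from the same cDNA fragments, so they are not independent measurements of a transcript. Coverage bore on the density: with 20 or more covering reads required, the densest window was searched anew. It then held 12 sites in Upf3a and 12 in Upf2, and need not be the window described above. Most sites of the described windows were covered by fewer than 20 reads, with a median coverage of 14 in Upf3a and 16 in Upf2.

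**Figure D3:**
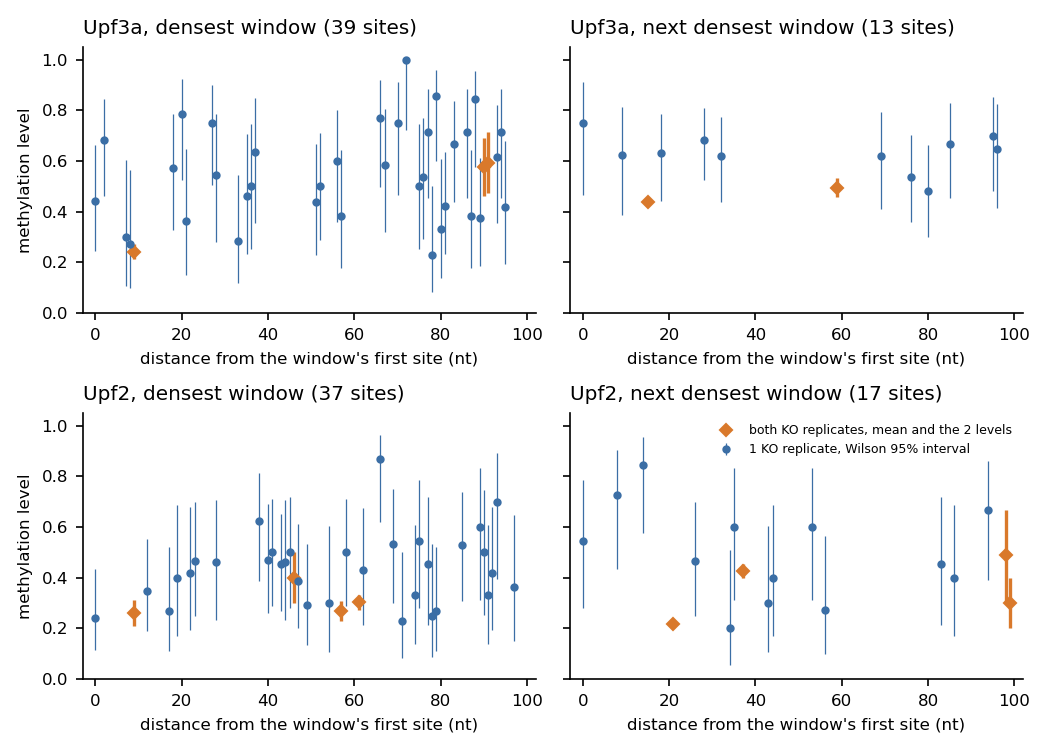
Methylation level (vertical, 0 to 1) against distance from the first site of the window in nt (horizontal) in the densest and next densest 100 nt of Upf3a (top) and Upf2 (bottom). Blue points are sites called in 1 KO replicate with Wilson 95% intervals, and orange diamonds are means of both replicates with a line joining the 2 levels; the left panels hold 39 and 37 sites and the right panels 13 and 17.

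Smg1 and Smg8, genes of the kinase complex on the minus strand, had levels near the listing minimum. Smg1, which encodes the kinase, had 4 sites on chromosome 7, each called in 1 replicate. They kept 3 of 15 reads at 118131679, 3 of 14 at 118140468, 2 of 10 at 118141866 and 3 of 15 at 118183780. The levels were therefore 0.2, 0.214, 0.2 and 0.2, and the Wilson intervals of all 4 overlapped, from 0.0567 at the lowest bound to 0.510 at the highest. Smg8 had 2 sites on chromosome 11, one of 3 in 11 reads (0.273, Wilson interval 0.0975 to 0.566) at 87080471 and one of 2 in 10 reads (0.2, interval 0.0567 to 0.510) at 87086403. Of the 7 minus-strand sites 4 stood at a level of 0.2, against 38 of the 895 plus-strand sites. Such levels were common among all listed minus-strand sites. Of these 4761 sites, 35.7% stood at 0.2, against 3.14% of all listed plus-strand sites. The median level was 0.231 over all minus-strand sites and 0.531 over all plus-strand sites. Levels near the minimum are therefore not particular to Smg1 and Smg8.

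Smg9, the plus-strand gene of the same complex, had 113 sites on chromosome 7 between 24399770 and 24422725. It had the highest levels of all the factors, with a median of 0.667 (quartiles 0.5 and 0.8), which put it at percentile 96.0 of plus-strand genes with 5 or more sites. A level of at least 0.9 was listed for 16 of its sites and a level of 1 for 8. At 24421207 all 20 reads used were unconverted (Wilson interval 0.839 to 1). The deepest site, at 24422365, had levels of 0.667 and 0.689 in the replicates (mean 0.678, SD 0.0156, n = 2) at a mean coverage of 59 reads. In all, 17 sites (15.0%, exact interval 9.01 to 23.0) were called in both replicates. Smg9 sites were the least clustered of the 5 plus-strand factors: 61.1% had another listed site within 10 nt, against 89.2% in Upf3a, 84.2% in Upf2 and 70.3% over all sites, and the densest 100 nt held 10.

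The sites of these genes also differed in how many of the covering reads counted toward the level. At plus-strand factor sites called in 1 replicate, a median of 83.3% of covering reads was used, close to the 82.6% over all such sites in the table. At the 7 minus-strand sites the median was 30.3%. Low use was common on that strand: over the whole table the median was 50% at minus-strand and 82.8% at plus-strand sites called in 1 replicate. At 5 of these 7, and at 67 of 771 plus-strand sites (8.69%), under 50% of the reads were used. The site of Smg1 at 118140468 used 14 of 64 reads and that of Upf3b 17 of 66. What removed the other reads is not stated in the header or the labels.

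**Figure D4:**
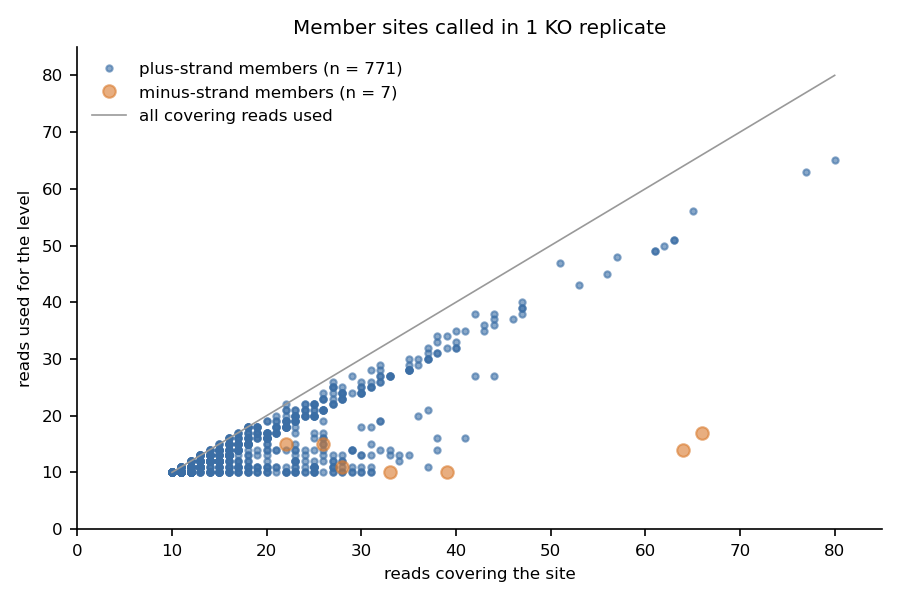
Reads used for the level (vertical) against reads covering the site (horizontal) for factor sites called in 1 KO replicate, 771 on the plus strand in blue and 7 on the minus strand in orange; the grey line marks sites where all reads were used. Most plus-strand sites follow a line just below the grey one, a smaller set lies near 10 reads used, and the Upf3b and Smg1 sites at 66 and 64 reads lie lowest relative to it.

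Smg5, which encodes an adaptor that binds phosphorylated UPF1, had more sites than any other NMD factor, 263 on the plus strand of chromosome 3 between 88336423 and 88362264. That put it at percentile 97.5 of plus-strand genes with a site, with 10.1 sites per kb of gene span, against 8.12 in Upf3a, 4.47 in Smg9, 1.86 in Upf2 and 0.889 in Smg6. The spans include introns, which were not separated here. The median level was 0.545 (quartiles 0.385 and 0.714), and 34 sites (12.9%, exact interval 9.12 to 17.6) were called in both replicates. The last group, of 118 sites over 4521 nt, reached the 3' end of the gene. Smg5 also had the deepest site of the factors, at 88361212, where 25 of 65 reads used were unconverted (0.385, Wilson interval 0.276 to 0.506) out of 80 covering. At 88361963 the replicates gave 0.4 and 0.636 (mean 0.518, SD 0.167, n = 2) at a mean coverage of 53 reads. The mean count of unconverted reads there was 5, so most covering reads did not enter the level. With 20 or more covering reads, 4 sites had a level of 1, from 10 or 11 reads used each. One of them, at 88351990, had 10 of 10 reads used unconverted (interval 0.722 to 1) and lay in the densest 100 nt of the gene, whose 18 sites had a median of 0.783 and of which 7 were called in both replicates.

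Smg6, the gene of the endonuclease that cuts NMD substrates, had 212 sites on the plus strand of chromosome 11 between 74925951 and 75164298. Their median level was 0.504 (quartiles 0.354 and 0.645). With 37 sites (17.5%, exact interval 12.6 to 23.2) called in both replicates, Smg6 had the highest such share of the factors, and its interval included the 14.2% of all sites. The sites gathered at both ends of the long gene span, with 54.2% in the first 10% of its length and 30.2% in the last 10%. The most deeply read site, at 75164177, had levels of 0.281 and 0.455 (mean 0.368, SD 0.123, n = 2), and at 74929991 all 11 reads used were unconverted (Wilson interval 0.741 to 1). At its ends Smg6 overlaps 2 genes of the opposite strand, Srr with 16 of the Smg6 sites and Hic1 with 31. The kit was stranded, per the labels, but neither labels nor header state whether the reads were assigned by strand.

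At the 5' end of Smg6 the reference bases under the sites could be read, since the RefSeq start-site sequence of Srr (GRCm38.p6) covers this stretch. It is shown because it is the one place among the factors where listed positions can be seen in sequence, and it holds 13 sites in 100 nt, which one other window of Smg6 equals and none exceeds. The sequence below is the Smg6 sense strand at chr11:74925946-74925998, and capitals mark the 13 listed positions.
Smg6: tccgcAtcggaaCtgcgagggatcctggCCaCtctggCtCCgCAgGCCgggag
Of the 18 cytosines in these 53 bases 10 were listed, and 3 further capitals are 2 A and 1 G. From left to right, the levels were 0.778, 0.545, 0.919, 0.692, 0.25, 0.367, 0.532, 0.748, 0.3, 0.526, 0.556, 0.95 and 0.579, at 18 to 25 covering reads. At the listed A positions 14 of 18 and 10 of 19 reads used were counted as unconverted, and at the listed G position 10 of 18. What such a count means where the reference base is not C was not tested. The 3 A and G positions were called in 1 replicate each, whereas 6 of the 10 listed cytosines were called in both. The 2 replicate levels at those 6 were 0.909 and 0.929, 0.333 and 0.401, 0.364 and 0.7, 0.727 and 0.769, 0.9 and 1, and 0.357 and 0.801, in the order of the sequence. The levels at the listed A and G positions lay within the range of those at the cytosines.

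Positions whose reference base is not C were also common elsewhere in the table. RefSeq start-site windows covered 5942 plus-strand and 144 minus-strand listed positions. On the strand of the site the base was C at 3084, G at 1783, A at 1075 and T at 0 of the plus-strand positions, so 51.9% were cytosines, against 90.3% on the minus strand. The share was 68.8% for sites called in both replicates and 50.2% for sites called in 1. Among plus-strand positions it was 49.3% of 2874 with fewer than 5 listed neighbours within 50 nt and 54.7% of 3020 with 5 to 19. It was lowest, 31.3%, among the 48 with 20 or more, of which 15 were C, 18 G and 15 A. Such crowded positions can come from few stretches, so the 48 are not independent. Reference bases under the dense windows of Upf3a and Upf2 were not analysed here, so how many of their 39 and 37 positions are cytosines is unknown. The start-site windows of the 9 factors themselves held 0 listed sites on their own strand. In Smg6 a site only 0.097 kb from the start of the span already lay outside its window, so this 0 says little about the factors.

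At sites called in both replicates the levels can be compared within a site. The 124 such sites, all in plus-strand factors, had a median difference of 0.102 between the replicates. It was 0.1 or less at 62 of them, and the largest was 0.444, in Smg6. The median difference was 0.06 in Upf3a, 0.074 in Smg9, 0.082 in Upf2, 0.1 in Smg6 and 0.16 in Smg5. Because a call had to be made in each library, sites with a low level in one of them are missing here, and the full spread between the libraries was not measured.

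**Figure D5:**
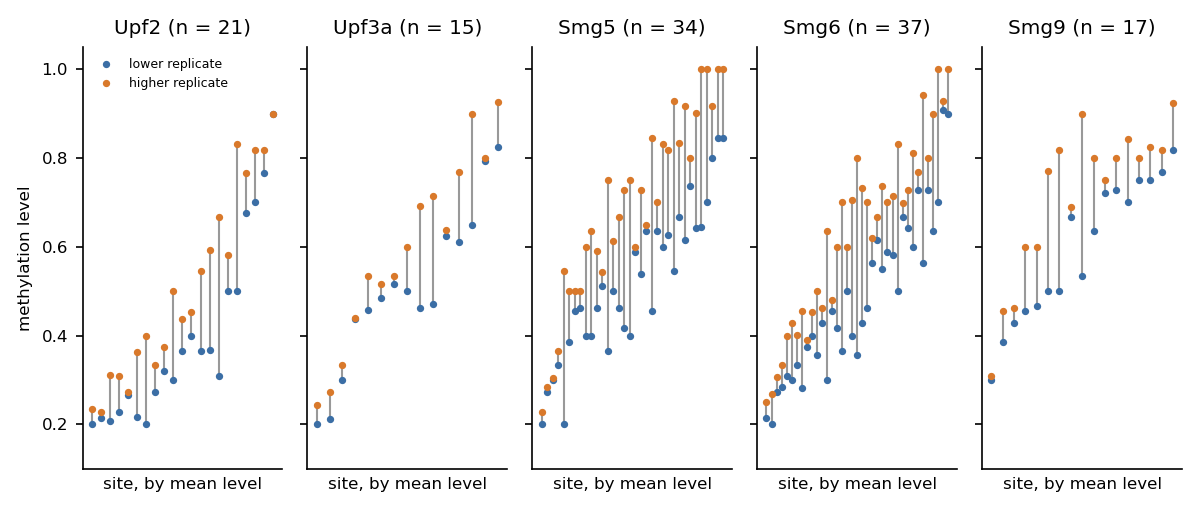
Methylation level (vertical) in the lower (blue) and higher (orange) KO replicate for the 124 sites called in both, ordered along the horizontal axis by mean level within each gene. Lines join the 2 levels of a site, with a median length of 0.06 in Upf3a and 0.16 in Smg5.

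Genes that work beside the factors often had sites too, again divided by strand. Of 40 genes in 4 lists, 31 had a site, against 34.2% of protein-coding genes. These are genes with wide expression, and a gene without reads cannot be listed; expression was not measured here. Where the strand was known, 16 of 16 plus-strand genes had a site, with a median of 106.5 sites (18 to 210), and 5 of 12 minus-strand genes had one, with a median of 2 (1 to 6). Over all protein-coding genes the shares were 51.4% and 18.5% on these strands, and the medians over all listed genes were 68 sites and 1. Among the NMD partners 6 of 8 had a site, led by Nbas with 158 sites (median level 0.529) and by the cap-binding complex genes Ncbp1 with 110 (0.545) and Ncbp2 with 47 (0.532). In the exon junction complex 7 of 9 had a site. Casc3, a core subunit, had 192 sites (median 0.5), the splicing-linked gene Rnps1 107 (0.688), and the core subunit gene Rbm8a 81 (0.539). The translation termination factors Gspt1 and Etf1, 2 of the 3 in their list, had 2 sites and 1 site. Of the decay enzymes and their partners 16 of 20 had a site, led by the deadenylase subunit gene Pan3 with 210 sites (0.5), the decapping enzyme gene Dcp2 with 185 (0.581) and the decapping scaffold gene Edc4 with 183 (0.538).

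The cell identity can be checked only weakly with this table, in which a site shows that reads were present and a missing site shows little. Shares of genes with a site are to be read against 51.4% of all plus-strand and 18.5% of all minus-strand protein-coding genes. Of 10 myeloid markers 9 had sites (7 of 7 on the plus strand), among them Csf3r with 221, Mpo with 217 and Kit with 106. Markers of B cells (0 of 4) and erythroid cells (0 of 3) had none, but only 1 gene of each list is known to lie on the plus strand, so these counts do not set the lists apart. T and NK cell markers had 1 of 4, the plus-strand gene Nkg7, with 56 sites of which 20 were called in both replicates. Stroma markers had 1 of 3, Pecam1, with 1 site. All 6 pancreatic hormone genes had sites, with 228 in Gcg and 139 in Ins2, although both are on the minus strand. The part of such RNA in the factors' sites was not tested.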

How the data were processed

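Bisulfite-converted poly(A) RNA of 2 WT and 2 Tet2 KO libraries was sequenced, with 70000000 reads planned per sample; library totals were not used here. Groups come from the genotype label. The build is mm10, per the submitters' processing notes; the aligner and the site caller were not given in the sources used here. In the authors' table, covering and unconverted read numbers are not normalized, and where both replicates made a call they are a score, the mean rounded by the authors. The authors' level is a fraction averaged over the calling replicates. Combined p-values were deposited and not used. There were 0 columns of another series.

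Reads used were unconverted reads over level, whole in 100% of single calls (tolerance 0.0006). The deposited SD was read as a population SD: mean plus SD equals 1 at 6.65% of 72227 sites, against 1.66% with the other divisor, and both replicate levels then lie between 0.199 and 1.001. Printed SDs are sample SDs. Gene labels matched RefSeq (GRCm38.p6) for 7806 of 7821. Strand and sequence came from 32851 RefSeq start-site windows, on the primary chromosomes shared with mm10, which hold 1.20% of listed sites. Windows were 100 nt from a site. Python 3.11.15, pandas 2.3.3 and SciPy 1.17.1 were used, and window, run and base functions were checked on simulated data.

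Named were all factors, for each the site of highest level among those with 20 or more covering reads, the deepest site and the deepest called in both replicates, every site of factors with 5 or fewer, the densest and next densest windows of Upf3a and Upf2, and the 3 genes with most sites of each pathway list. Other dense windows, adjacent runs and reference bases were chosen after their values were seen. A Fisher's exact test per site, planned if the table gave reads of single KO and WT libraries, was not made, since it gives none. Members and lists were chosen with earlier results of these data known. A gene of the pathway lists is not reported here.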

Additional observations from a re-analysis of the deposited data

Results flagged for a closer look

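Inside the span of Smg8, a minus-strand gene, 6 plus-strand sites were listed under the label Mir8115, which the comparisons above do not use. They kept 6 of 10, 3 of 10, 3 of 10, 6 of 10, 9 of 11 and 10 of 10 reads used, between 87079125 and 87079192 on chromosome 11, and all were called in 1 replicate. The RefSeq table places the Mir8115 hairpin on chromosome 5, so the label was not matched to a miRNA here and no sequence is shown. Inside the span of Upf3a, 4 plus-strand sites carried no gene label, at 13798584, 13798595, 13798607 and 13798611. Their levels were 0.545, 0.833, 0.8 and 0.7 at 28 to 33 covering reads, each called in 1 replicate, beyond the last labelled Upf3a site at 13798492.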

How the results depend on the processing

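The median level of the factors' sites, 0.526 as reported, was 0.521 at 20 or more covering reads, 0.482 at 50 or more and 0.569 for sites called in both replicates. Of 30 values under the alternatives, 15 stayed close to those reported. They include every value of the alternative that kept only rows labelled with factors alone, which removed no site and could not move. For medians, close means within the root-mean-square SD between replicates at single factor sites (0.128), a loose measure. Counts were also judged loosely: 39 to 26 Upf3a sites in 50 nt and 37 to 52 Upf2 sites in 200 nt were taken as close. Under each alternative the densest window was searched anew, so it need not be the window described above. Requiring 20 or more covering reads left 378 sites, 19.8% of them called in both replicates, and 12 sites in the densest window of Upf3a and of Upf2. Requiring 50 or more left 19 sites in 5 factors, 26.3% called in both. The densest window found then held 1 site in Upf3a and 0 in Upf2. Of the 44 listed genes of the 5 pathway lists, NMD targets included, 29 remained. Keeping only sites called in both replicates left 124 sites in 5 factors. The densest window found then held 4 in Upf3a and 5 in Upf2, against 3 and 4 such sites in the windows described above. A window of 50 nt held 24 Upf2 sites and 26 Upf3a sites at most. Fewer sites enter under each of these by construction. A window of 200 nt held 52 Upf2 sites and 46 Upf3a sites at most, so the order of these genes changed with the window length. The alternatives for the pathway genes were chosen after seeing the data. No factor site carried a label of a second gene. Leaving out a replicate could not be run on this table, and calls in both replicates stand in for it. No paired analysis was possible because the table used here holds no values of single libraries and none of WT. Coverage limits the levels: with a median of 13 reads used, a single site's interval is wide.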

Other observations

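Genes with transcripts known as NMD substrates were also listed, 13 of the 16 drawn up for this purpose, against 34.2% of protein-coding genes. All 10 plus-strand members and 3 of 6 minus-strand members had a site, against 51.4% and 18.5% of protein-coding genes on these strands. The list also holds non-coding genes, for which no matching share was computed. Sites carry gene labels only, so whether they lie on the substrate transcripts or on other transcripts of these genes was not tested. The table does not correct for expression. Hnrnpl, which encodes a splicing regulator, led with 268 sites at a median level of 0.545, of which 34 were called in both replicates. Cdkn1a, the gene of the cell cycle inhibitor p21, and Ddit3, the gene of the stress-induced factor CHOP, had 155 sites each, with medians of 0.6 and 0.545.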
